A study of Homo sapiens with 18 samples.

Results

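The genes described here are 10 components of the mTORC1 pathway and of the control of TOP mRNAs, namely MTOR, RPTOR, TSC1, TSC2, RHEB, RPS6KB1, EIF4EBP1, EIF4EBP2, LARP1 and PDCD4. They were chosen by name, and all 10 are among the 17017 gene symbols of the deposited count table. All libraries were made from MDA-MB-231, a long-established human line derived from triple-negative breast carcinoma. The cells carried a lentiviral scramble control (SC) or a short hairpin directed at fibrillarin (SH2 or SH3), the nucleolar enzyme that methylates ribosomal RNA. All groups were selected for 96 h in puromycin at 1 µg/ml, returned to fresh medium, and exposed to cycloheximide at 100 µg/ml for 5 min before lysis. The labels leave unsaid which hairpin of the protocol is SH2, and whether replicates came from separate transductions, so p-values measure the spread between these samples only. Each treatment has 3 libraries of cytoplasmic RNA (IN) and 3 of ribosome-protected footprints (RPF), which gives 18 libraries in 6 groups. Levels are given as CPM (counts in proportion to library size), scaled within each library kind. The SC libraries serve as control for SH2 and for SH3 alike, so the changes of the hairpins are not independent.

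mTORC1 is a kinase complex that couples growth to nutrients and growth factors. MTOR is its kinase and RPTOR the subunit that recruits substrates. The small GTPase RHEB activates the complex, and TSC1 with TSC2 holds RHEB in its inactive form. Active mTORC1 phosphorylates S6 kinase, encoded by RPS6KB1, and the 4E-binding proteins encoded by EIF4EBP1 and EIF4EBP2, which in their unphosphorylated form block the cap-binding factor eIF4E. LARP1 binds the cap and the adjoining pyrimidine tract of TOP mRNAs, which encode ribosomal proteins and translation factors, and represses them when mTORC1 is inactive. PDCD4 binds and inhibits the helicase eIF4A and is marked for degradation by S6 kinase. Most of this control acts through phosphorylation, which RNA and footprint counts do not measure.

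The feature that defines a TOP mRNA is a C at the first transcribed base followed by an unbroken run of pyrimidines. It was read on the transcribed strand of the RefSeq starts (GRCh38.p14) as a C at the first base followed by at least 4 further pyrimidines. Windows of 30 bases are shown, 10 before the annotated start and 20 from it. They cover 4 TOP mRNAs and 4 of the members, to set the feature beside its absence. Not shown are the starts of RPL32, a ribosomal protein gene with no tract at any listed start, and a further RPS19 start without it. Capitals mark the tract, or the first transcribed base where there is none. The windows lie at chr9:19380217-19380246 on the minus strand (RPS6), chr6:73521013-73521042 minus (EEF1A1), chr19:3985444-3985473 minus (EEF2), chr19:41860245-41860274 plus (RPS19), chr1:11262532-11262561 minus (MTOR), chr16:2047975-2048004 plus (TSC2), chr10:70404135-70404164 plus (EIF4EBP2) and chr10:110871918-110871947 plus (PDCD4).
RPS6: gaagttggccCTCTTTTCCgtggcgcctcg
EEF1A1: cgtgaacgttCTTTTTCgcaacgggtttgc
EEF2: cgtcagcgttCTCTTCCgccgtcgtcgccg
RPS19: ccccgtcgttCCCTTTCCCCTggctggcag
MTOR: tccttccctcGctcccggcttagaggacag
TSC2: tgcgggtcgcGcttccggcggcgtcccggg
EIF4EBP2: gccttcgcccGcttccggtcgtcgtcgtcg
PDCD4: gagaagggccAgagactctccgaggcggcg

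None of the 9 members matched in the RefSeq start table had such a tract at any listed start, LARP1 with its 4 starts and TSC2 with its 2 included. EIF4EBP1 was not matched. The tract stood at the start of 19 of 25 matched 40S ribosomal protein genes (76.0%), 28 of 38 matched 60S genes (73.7%) and 10 of 12 other matched TOP mRNAs (83.3%). Among all genes tested for translational efficiency and matched, 754 of 10189 had it (7.4%), as did 1429 of all 35116 listed starts (4.07%). The match is a description of annotated starts, not of starts measured in these cells.

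IN libraries held 23469830 to 27629488 counts and RPF libraries 1662705 to 6098648. The members held 403 to 12595 counts per IN library and 14 to 1219 per RPF library. FBL RNA, the targeted message, stood at 1.46% of its SC mean with SH2 and 0.898% with SH3, and among the SH2 libraries replicate 3 was highest at 11.2 CPM. Of the markers of this line, VIM stood at 4081 to 7223 CPM over the IN libraries. The other line markers had log2 changes in RNA with SH2 of 2.21 (EGFR), 0.68 (CD44), 0.41 (KRT18) and -0.77 (AXL). With SH3 these were 1.64 (EGFR), 0.09 (CD44), 0.46 (KRT18) and -0.21 (AXL). Among genes listed as low in this line, the receptor genes ESR1 and PGR had at most 1 and 2 counts and CDH1 at most 11. ERBB2, a receptor gene of the same list, had 1923 to 2613 counts. The 5 markers of other cell types summed to 35.6 to 53.0 CPM with SC, 58.3 to 112 with SH2 and 70.4 to 89.0 with SH3, with KRT5 at 0 or 1 count. COL1A1 gave most of this and was higher by 1.25 with SH2 and 1.10 with SH3 on the log2 scale, while PTPRC was lower. Their part in the results was not tested. As in any bulk sample, fewer cells of a kind and less RNA per cell cannot be told apart.

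RNA of the activating GTPase, of the S6 kinase gene RPS6KB1 and of EIF4EBP1 was lower in both hairpins. RNA of the kinase MTOR and of its inhibitor TSC2 was higher in both. In SH2, 6 of the 10 members were called (edgeR adjusted p under 0.05), 2 higher and 4 lower, where 61.4% of 12710 tested genes were called (31.1% higher, 30.4% lower). The SH3 comparison called 8 members, 4 higher and 4 lower, where 53.0% of all genes were (27.8% higher, 25.2% lower). Whether the members' counts differ from these shares was not tested. The median absolute log2 change of the members was 0.56 in SH2 and 0.49 in SH3, beside 0.47 and 0.39 over all genes tested. In footprints 5 members were called with SH2, 2 higher and 3 lower, where 44.2% of 10345 genes were (21.0% higher, 23.2% lower). With SH3, 7 were called, 4 higher and 3 lower, where 35.9% of all genes were (16.9% higher, 19.0% lower). No member called in RNA against SC, or in footprints with SH2, lost its call under any alternative tried.

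**Figure D1:**
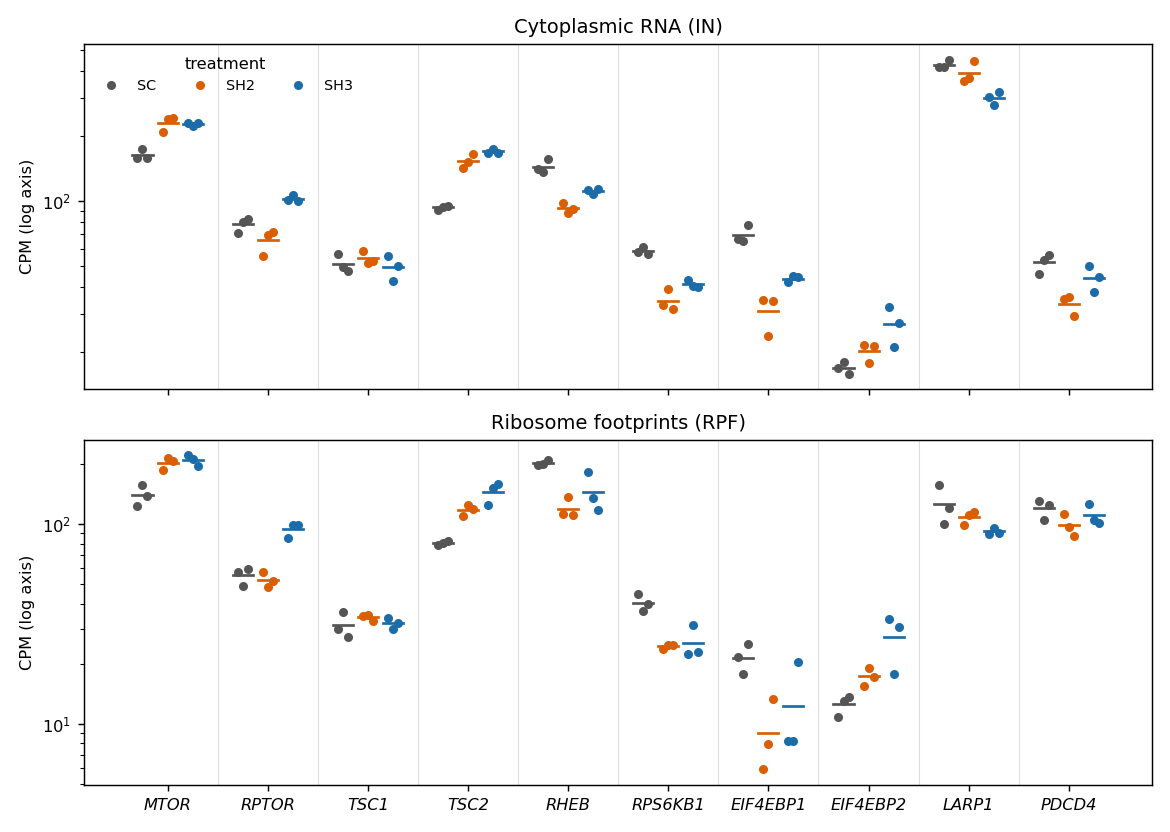
Level of each member in CPM on a log axis, in cytoplasmic RNA (top) and ribosome footprints (bottom). Points are single libraries, bars the mean of 3, and colours the treatments. For TSC2 all SH2 and SH3 points lie above all SC points in both panels, and for RPS6KB1 all lie below.

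Within the kinase complex, MTOR RNA stood at 159, 174 and 159 CPM in the SC replicates, at 208, 240.0 and 242 with SH2 and at 229, 223 and 230.1 with SH3. Every hairpin library lay above every SC library. The log2 change was 0.49 in SH2 (SE 0.09, edgeR adjusted p 0.000347) and, with SH3, 0.47 (SE 0.09, edgeR adjusted p 0.000623). MTOR footprints went from 140.0 ± 16.6 CPM with SC to 203 ± 14.7 with SH2 and 210 ± 12.4 with SH3 (SD, n = 3 each), again without overlap. Their log2 changes were 0.54 (edgeR adjusted p 0.00378) and 0.59 (edgeR adjusted p 0.00315). In RNA the hairpins differed in MTOR by 0.02 (SE 0.09, edgeR adjusted p 0.907).

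RPTOR rose with SH3, whereas its lower SH2 value in RNA passed the threshold under some settings only. Its RNA stood at 70.8, 80.2 and 83.0 CPM with SC, 55.7, 69.3 and 71.9 with SH2, and 102, 106 and 100.0 with SH3. The SH3 libraries were above all others, and the SH2 libraries overlapped SC at its lower end. The SH3 rise was 0.40 (SE 0.11, edgeR adjusted p 0.00677), while the SH2 value of -0.25 did not pass (SE 0.11, edgeR adjusted p 0.0592). The SH2 value passed without SC replicate 1 (-0.33, edgeR adjusted p 0.02) and without SH2 replicate 3 (-0.34, edgeR adjusted p 0.021). It also passed with the DESeq2 Wald test (-0.26, adjusted p 0.0447) and with DESeq2-style size factors in edgeR (-0.26, edgeR adjusted p 0.0461). With the replicate number as a block it passed as well (-0.25, edgeR adjusted p 0.0268). Without SH2 replicate 1, the lowest library at 55.7 CPM, it was -0.14 and did not pass (edgeR adjusted p 0.263). In RPTOR footprints SH3 stood at 84.9, 98.6 and 99.2 CPM, above SC (57.3, 49.3 and 59.7) and SH2 (57.8, 48.7 and 51.8). That rise was 0.76 on the log2 scale (SE 0.14, edgeR adjusted p 0.000787), and the SH2 value was -0.08 (edgeR adjusted p 0.668). Compared directly, SH2 lay below SH3, with a log2 difference of -0.64 in RNA (SE 0.11, edgeR adjusted p 0.000409) and -0.85 in footprints (SE 0.15, edgeR adjusted p 0.000698).

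Of the TSC complex, which restrains RHEB, TSC2 rose and TSC1 did not pass in any comparison. TSC2 RNA stood at 91.3, 94.2 and 94.9 CPM with SC, 142, 151 and 166 with SH2, and 168, 175 and 168 with SH3. On the log2 scale TSC2 RNA rose by 0.71 with SH2 and 0.86 with SH3 (SE 0.09 each, edgeR adjusted p 9.17e-06 and 3.49e-06). TSC2 footprints rose from 80.6 ± 2.25 CPM with SC to 118 ± 7.40 with SH2 and 145 ± 18.1 with SH3 (SD, n = 3 each), by 0.55 (edgeR adjusted p 0.00378) and 0.85 (edgeR adjusted p 0.000234). Every hairpin library lay above SC in both measures. TSC1, the stabilising partner, had RNA values of 0.09 with SH2 and -0.05 with SH3 (SE 0.11 each, edgeR adjusted p 0.529 and 0.713). Its footprint values were 0.15 and 0.05 (SE 0.17 each). Its libraries overlapped between all treatments.

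RHEB, the GTPase on which TSC2 acts, was lower in both hairpins. RHEB RNA was 140.2, 136 and 157 CPM with SC, 98.2, 88.0 and 91.8 with SH2, and 112, 108 and 114 with SH3. The 3 treatments did not overlap, with SH2 lowest. The log2 change was -0.64 in SH2 (SE 0.09, edgeR adjusted p 3.34e-05) and, with SH3, -0.37 (SE 0.09, edgeR adjusted p 0.00304). RHEB footprints were 203 ± 6.17 CPM with SC, 119.8 ± 14.2 with SH2 and 146 ± 33.9 with SH3 (SD, n = 3 each), changes of -0.76 (edgeR adjusted p 0.0012) and -0.49 (edgeR adjusted p 0.0252). The SH3 footprint call was lost on leaving out SC replicate 3 (-0.45), SH3 replicate 2 (-0.44) or SH3 replicate 3 (-0.35), with edgeR adjusted p of 0.0802, 0.105 and 0.142, and with footprints thinned to one depth (-0.46, edgeR adjusted p 0.0521). The fall in SH2 was the larger in RNA (log2 difference -0.27, SE 0.09, edgeR adjusted p 0.03), but this call too was lost without any one of SH2 replicates 2 and 3 and SH3 replicates 1, 2 and 3 (edgeR adjusted p 0.0597 to 0.13).

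Among the substrates, RPS6KB1 and EIF4EBP1 RNA was lower with both hairpins, and EIF4EBP2 RNA was higher with SH3. RPS6KB1 RNA stood at 57.8, 61.2 and 56.6 CPM with SC, 32.8, 39.2 and 31.5 with SH2, and 43.2, 40.2 and 40.1 with SH3, so that every hairpin library lay below SC. The log2 change was -0.76 in SH2 (SE 0.10, edgeR adjusted p 2.38e-05) and, with SH3, -0.51 (SE 0.10, edgeR adjusted p 0.000924). RPS6KB1 footprints fell from 40.3 ± 3.94 CPM to 24.4 ± 0.656 and 25.4 ± 5.00 (SD, n = 3 each), log2 changes of -0.73 (edgeR adjusted p 0.00332) and -0.66 (edgeR adjusted p 0.00944). The SH3 footprint value was -0.57 without SH3 replicate 3 (edgeR adjusted p 0.0572) and -0.46 with footprints thinned to one depth (edgeR adjusted p 0.121), neither past the threshold. RPS6KB2, an S6 kinase gene outside the members, had RNA levels of 81.7 ± 9.82 CPM with SC, 90.4 ± 7.12 with SH2 and 94.35 ± 2.07 with SH3. Its footprint levels were 18.9 ± 0.862, 11.8 ± 2.99 and 12.95 ± 1.80 CPM (SD, n = 3 each).

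EIF4EBP1 had the largest fall of the 10 members in SH2. Its RNA stood at 66.5, 65.5 and 77.3 CPM with SC, 34.7, 23.7 and 34.2 with SH2, and 42.0, 44.8 and 44.4 with SH3, with no overlap between any of the treatments. The log2 change was -1.18 in SH2 (SE 0.13, edgeR adjusted p 5.38e-06) and, with SH3, -0.67 (SE 0.13, edgeR adjusted p 0.000772), and the hairpins differed by -0.50 (SE 0.13, edgeR adjusted p 0.00905), or by -0.31 without SH2 replicate 2 (edgeR adjusted p 0.0278). Footprints of EIF4EBP1 were few, 14 to 141 counts per library. They stood at 21.6, 17.7 and 25.0 CPM with SC, 5.92, 7.92 and 13.3 with SH2, and 8.20, 8.22 and 20.3 with SH3. SH2 lay below SC, with a log2 change of -1.26 (SE 0.33, edgeR adjusted p 0.00521). In SH3, replicate 3 lay within the SC range, and the value of -0.79 did not pass (SE 0.32, edgeR adjusted p 0.0684). Without that library it was -1.39 (edgeR adjusted p 0.00682), and without SC replicate 2 it was -0.88 (edgeR adjusted p 0.0457). Without SH3 replicate 2 it was -0.52 and did not pass (edgeR adjusted p 0.302).

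EIF4EBP2, a paralog with the same role, rose with SH3. Its RNA stood at 16.9, 17.97 and 15.8 CPM with SC, 21.5, 17.8 and 21.3 with SH2, and 32.4, 21.1 and 27.1 with SH3. SH3 lay above SC, by 0.67 (SE 0.15, edgeR adjusted p 0.00166), and SH2 overlapped SC, at 0.25 (SE 0.15, edgeR adjusted p 0.149). Footprints of EIF4EBP2 were 12.5 ± 1.47 CPM with SC, 17.3 ± 1.78 with SH2 and 27.2 ± 8.29 with SH3 (SD, n = 3 each). The SH3 rise of 1.10 (SE 0.24, edgeR adjusted p 0.00198) was the largest of the members in that measure, and the SH2 value was 0.48 (SE 0.24, edgeR adjusted p 0.112). Between the hairpins RNA differed by -0.42 (SE 0.15, edgeR adjusted p 0.0355), a call that was lost without SH2 replicate 2 or 3 or SH3 replicate 1 or 3, with values from -0.24 to -0.44.

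LARP1, the repressor of TOP mRNAs, was lower in SH3. Its RNA stood at 416, 417 and 452 CPM with SC, 360.2, 374 and 448 with SH2, and 304, 280.1 and 320.4 with SH3. SH3 lay below all other libraries, and SH2 replicate 3 lay within the SC range. The log2 change was -0.51 in SH3 (SE 0.10, edgeR adjusted p 0.000891) and -0.12 in SH2 (SE 0.10, edgeR adjusted p 0.312). The SH2 value was -0.25 without SH2 replicate 3 (edgeR adjusted p 0.043) and -0.06 without SH2 replicate 1 (edgeR adjusted p 0.663). The hairpins differed by 0.39 (SE 0.10, edgeR adjusted p 0.00847). LARP1 footprints were 126 ± 28.9 CPM with SC, 109 ± 8.23 with SH2 and 92.1 ± 3.61 with SH3 (SD, n = 3 each). The SH3 change of -0.46 (SE 0.16, edgeR adjusted p 0.0338) lost its call without any one of SC replicates 1 and 3 and the 3 SH3 replicates, and with footprints thinned to one depth (-0.41, edgeR adjusted p 0.0798). Without SC replicate 1, the highest library at 157 CPM, it was -0.26 (edgeR adjusted p 0.2).

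PDCD4, the inhibitor of eIF4A, was lower in RNA with SH2. Its RNA stood at 46.1, 53.5 and 56.2 CPM with SC, 35.1, 35.9 and 29.4 with SH2, and 50.0, 37.9 and 44.6 with SH3. SH2 lay below SC, with a log2 change of -0.63 (SE 0.12, edgeR adjusted p 0.000547), while SH3 overlapped it, at -0.23 (SE 0.12, edgeR adjusted p 0.128). The SH3 value passed on leaving out SC replicate 1 (-0.33) or SH3 replicate 1 (-0.37), with edgeR adjusted p of 0.0464 and 0.0322. Over all alternatives it ran from -0.37 to -0.17, and it passed in no other. PDCD4 footprints overlapped between all treatments, at 120.3 ± 13.3, 99.0 ± 12.3 and 111 ± 13.6 CPM (SD, n = 3 each). Their log2 values of -0.29 with SH2 and -0.13 with SH3 did not pass (SE 0.15 each, edgeR adjusted p 0.125 and 0.534). RNA differed between the hairpins by -0.40 (SE 0.12, edgeR adjusted p 0.0202), which was lost without SH2 replicate 3 or SH3 replicate 1 or 3 (edgeR adjusted p 0.0657 to 0.118).

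**Figure D2:**
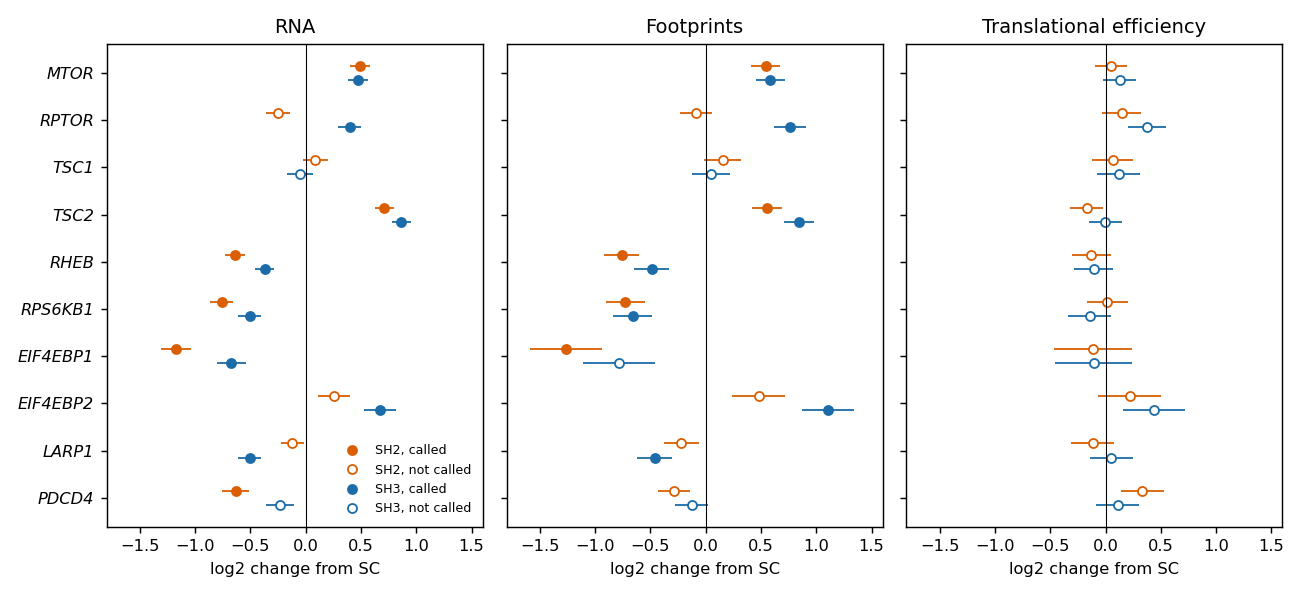
Log2 change of each member against SC in RNA, footprints and translational efficiency (footprints relative to RNA), with bars of 1 SE from edgeR. Filled points have an adjusted p under 0.05. The points of RNA and footprints spread from -1.26 to 1.10, whereas those of translational efficiency lie between -0.17 and 0.44 and are all open.

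In the direct comparison of SH2 with SH3, 6 members were called in RNA, where 39.3% of all genes were (18.9% higher, 20.4% lower). RPTOR, RHEB, EIF4EBP1, EIF4EBP2 and PDCD4 were lower in SH2 and LARP1 was higher. The count was 3 without SH2 replicate 3, SH3 replicate 1 or SH3 replicate 3. In footprints only RPTOR was called, where 23.8% of all genes were (12.1% higher, 11.6% lower), and without SH3 replicate 2 EIF4EBP2 joined it (-0.87, edgeR adjusted p 0.016). The remaining member values in footprints carried SEs of 0.13 to 0.36.

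Translational efficiency asks whether footprints moved more or less than RNA. Of the 10 members, 0 were called by edgeR in SH2, in SH3 or between the hairpins, and 0 by the DESeq2 Wald test. At an unadjusted p under 0.05 there were 0, 1 and 0, the 1 being RPTOR in SH3. Of 12531 genes, 3.9% were called in SH2 (1.44% higher, 2.46% lower), 0.686% in SH3 (0.375% higher, 0.311% lower) and 0.016% between the hairpins (0.0% higher), so that 0 of 10 does not set the members apart. Their values lay between -0.17 and 0.33 with SH2 and between -0.14 and 0.44 with SH3, with SEs of 0.15 to 0.35. The median absolute value was 0.12 in SH2 and 0.11 in SH3, beside 0.29 and 0.26 over all genes. All genes here include many with too few footprints for the footprint test, which all members passed. These medians are therefore not of like sets. RPTOR footprints per RNA were 0.809, 0.615 and 0.719 in SC and 0.836, 0.927 and 0.992 in SH3, a log2 change of 0.37 (SE 0.17, edgeR adjusted p 0.365). PDCD4 had the highest value in SH2, with ratios of 2.84, 1.97 and 2.22 in SC and 3.20, 2.71 and 2.98 in SH2, or 0.33 (SE 0.19, edgeR adjusted p 0.388), with groups that overlapped. TSC2 had the lowest value in SH2, with ratios of 0.857, 0.859 and 0.872 in SC and 0.772, 0.823 and 0.724 in SH2. Its log2 change was -0.17 and did not pass (SE 0.15, edgeR adjusted p 0.594). LARP1, whose product represses TOP mRNAs, stood at -0.12 in SH2 (SE 0.19, edgeR adjusted p 0.811) and, with SH3, 0.05 (SE 0.19, edgeR adjusted p 0.949).

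**Figure D3:**
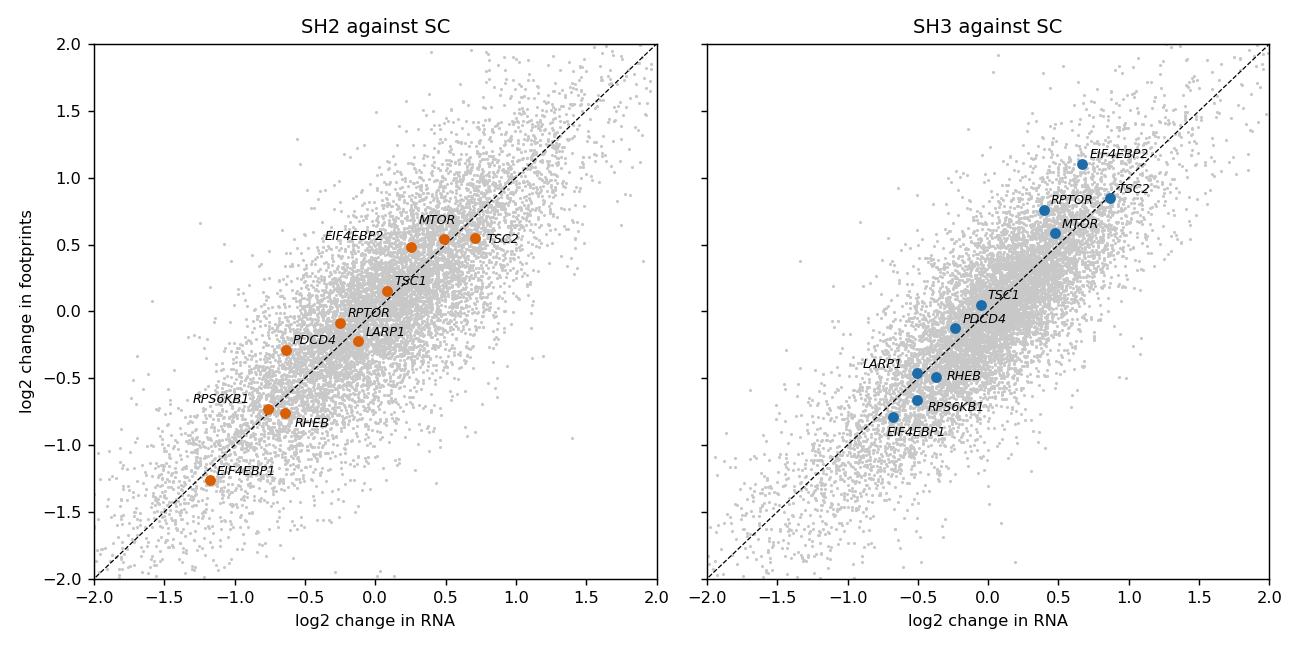
Log2 change in footprints against log2 change in RNA for SH2 (left) and SH3 (right). Grey points are genes tested in both measures, coloured points the members, and the dashed line marks equal change; genes beyond the axis limits are not drawn. The members lie along the line, with EIF4EBP1 lowest and, in SH3, EIF4EBP2 highest in footprints.

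In SC the members differed widely in footprints per RNA. The ratio of footprint CPM to RNA CPM in the same-numbered SC libraries was 2.34 ± 0.45 for PDCD4, at the 95.1 percentile of the 12531 genes tested, and 1.41 ± 0.068 for RHEB, at the 78.6 percentile (SD, n = 3 each). TSC2 (0.862), MTOR (0.852), EIF4EBP2 (0.744), RPTOR (0.714), RPS6KB1 (0.691) and TSC1 (0.611) stood between the 34.9 and 51.7 percentiles, around the median ratio of 0.832. Within this middle group, the ratio of neighbours differed by less than the larger of their SDs. At the low end stood EIF4EBP1 at 0.306 ± 0.031 (13.7 percentile) and LARP1 at 0.295 ± 0.073 (13.0 percentile), which did not differ beyond their spread. The 12531 genes include many with too few footprints for the footprint test, which all members passed. The percentiles are therefore not taken among like genes. The ratio is within a gene and free of its length only if both kinds of library were counted over the same region, which is not stated. With plain library totals in place of scaled ones these ratios ran from 0.305 for LARP1 to 2.42 for PDCD4.

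**Figure D4:**
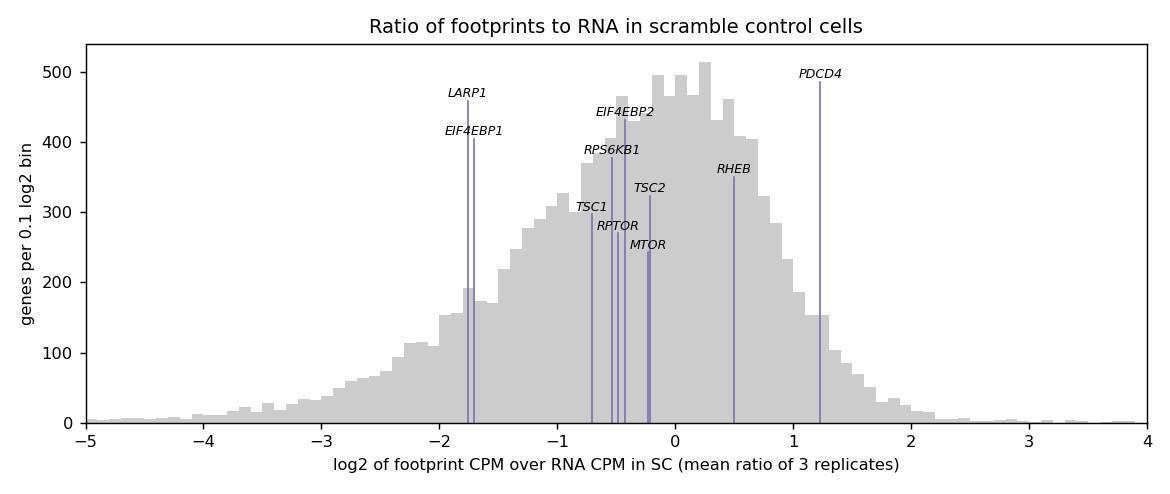
Distribution of the SC ratio of footprints to RNA on a log2 axis over all genes tested for translational efficiency (grey), with each member marked by a line whose height carries no value. PDCD4 stands at the right, LARP1 and EIF4EBP1 at the left, and 6 members lie near the median ratio of 0.832.

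Members were also compared by how their levels ran over the 18 libraries, with each library kind centred on its own mean. These correlations describe the libraries, which share treatments and scaling, and carry no p. MTOR and TSC2 ran together (Pearson's r 0.90), as did RHEB and RPS6KB1 (0.79), whereas MTOR and RPS6KB1 ran opposite (-0.87). Of 10335 genes, those most like MTOR were CTNNB1, which encodes beta-catenin, ROBO2, an axon guidance receptor, and CMTM3 (r 0.96 each). Those most like LARP1 were TOMM5, a subunit of the mitochondrial import pore (0.88), OTUD6B, a deubiquitinase (0.87), and TEAD1, the partner of YAP (0.87). Those most like PDCD4 were PIK3C2A, a lipid kinase (0.92), KIF18A, a mitotic kinesin (0.91), and TPMT, a thiopurine methyltransferase (0.90).

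Beyond the members, a list of 94 other pathway genes in the table was examined, chosen by their roles. In RNA, 26 rose and 26 fell of 91 tested in SH2 (57.1% called), and 31 rose and 20 fell in SH3 (56.0%). The fallen in SH3 were 11 without SC replicate 3, and the risen 19 without SH3 replicate 3. In footprints 17 rose and 18 fell of 89 in SH2, and 18 rose and 10 fell in SH3, the latter 4 to 5 without SC replicate 3, SH3 replicate 2 or SH3 replicate 3. Over all genes the shares called were 61.4% and 53.0% in RNA and 44.2% and 35.9% in footprints.

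Among 18 nutrient sensors and subunits of GATOR and KICSTOR, the complexes that relay them to mTORC1, 7 rose and 7 fell in SH2 RNA, and 8 rose and 1 fell in SH3 RNA. Their footprints rose in 3 and fell in 3 in SH2, and rose in 3 and fell in 2 in SH3. Over all genes, the shares called higher and lower were 31.1% and 30.4% in SH2 RNA and 27.8% and 25.2% in SH3 RNA. In footprints these shares were 21.0% and 23.2% in SH2, and 16.9% and 19.0% in SH3. Whether the list differs from them was not tested. SESN2, the leucine sensor that restrains mTORC1, rose in RNA. It went from 16.7 ± 3.76 CPM with SC to 44.5 ± 7.18 with SH2 and 57.3 ± 4.80 with SH3 (SD, n = 3 each). On the log2 scale this was 1.41 and 1.77 (SE 0.16 each, edgeR adjusted p 3.97e-06 and 1.33e-06). SESN2 footprints rose in SH3 alone past the threshold (1.54, edgeR adjusted p 5.23e-05), with 0.28 in SH2 (edgeR adjusted p 0.314), and the hairpins differed by -1.27 (edgeR adjusted p 0.000468). SLC38A9, the lysosomal arginine sensor, was listed with the Rag GTPases and is not among these 18. It rose in RNA by 1.02 in SH2 and, with SH3, 0.96 (SE 0.14 each, edgeR adjusted p 3.53e-05 and 9.89e-05). BMT2, the sensor of S-adenosylmethionine also known as SAMTOR, fell in SH2 by 1.34 in RNA (SE 0.14, edgeR adjusted p 2.27e-06) and by 1.58 in footprints (SE 0.37, edgeR adjusted p 0.00295), with -0.29 in SH3 RNA (edgeR adjusted p 0.0761). SESN3, a relative of SESN2, fell in RNA by 1.23 with SH2 (SE 0.35, edgeR adjusted p 0.0068). With SH3 its value was -0.85 (SE 0.34, edgeR adjusted p 0.048). The SH3 call of SESN3 was lost with the DESeq2 Wald test (-0.88, adjusted p 0.117) and without SC replicate 2 or 3 or SH3 replicate 1 or 2 (-0.83 to -0.59, edgeR adjusted p 0.111 to 0.205). The GTPase RRAGD, which is not a sensor, fell in SH2, with log2 changes of -1.07 in RNA (SE 0.11, edgeR adjusted p 2.99e-06) and -1.91 in footprints (SE 0.36, edgeR adjusted p 0.000593).

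On the growth factor side, IRS2, an adaptor of the insulin receptor, rose in RNA from 62.6 ± 7.37 CPM to 151 ± 33.3 with SH2 and 114 ± 12.6 with SH3 (SD, n = 3 each), by 1.27 (edgeR adjusted p 5.67e-06) and 0.87 (edgeR adjusted p 0.000218). Its footprints rose by 1.65 in each. AKT1, the kinase that inactivates TSC2, fell in RNA, with log2 changes of -0.38 (edgeR adjusted p 0.00923) and -0.76 (edgeR adjusted p 8.03e-05), and in footprints, with -0.83 (edgeR adjusted p 0.0011) and -1.13 (edgeR adjusted p 0.000214). Of the energy sensor AMPK, the subunit PRKAG2 fell in SH2 RNA (log2 change -1.53, SE 0.10, edgeR adjusted p 5.74e-08). Its footprints went from 23.4 ± 6.04 to 8.64 ± 2.00 CPM (SD, n = 3 each, edgeR adjusted p 0.000149). Of 10 energy and stress genes tested in RNA, 2 rose and 5 fell in SH2, and 1 rose and 4 fell in SH3. Over all genes, 31.1% were called higher and 30.4% lower in SH2 RNA, and 27.8% and 25.2% in SH3 RNA. The riser in SH3 was CAB39 (0.80, edgeR adjusted p 2.41e-05). Whether the list differs from these shares was not tested. Of the other mTORC1 subunits, MLST8 fell in SH2, with log2 changes of -0.40 in RNA (edgeR adjusted p 0.00749) and -0.78 in footprints (edgeR adjusted p 0.00335). RICTOR, which defines mTORC2, rose in footprints by 0.99 (edgeR adjusted p 0.000364) and 0.85 (edgeR adjusted p 0.00182). MAPKAP1, another mTORC2 subunit, went the other way in footprints, with -0.55 in SH2 (edgeR adjusted p 0.011) and -0.49 in SH3 (edgeR adjusted p 0.0296). The mTORC2 subunit PRR5L did not pass in footprints, at 0.09 and -0.16 (edgeR adjusted p 0.794 and 0.671).

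Downstream, ULK1, the autophagy kinase restrained by mTORC1, rose in RNA by 1.11 in SH2 (edgeR adjusted p 8.71e-06) and, with SH3, 0.58 (edgeR adjusted p 0.00239). EIF4E, the cap-binding factor blocked by the 4E-binding proteins, fell in RNA, at -0.66 (edgeR adjusted p 6.38e-05) and -0.42 (edgeR adjusted p 0.00305). BTRC, the ubiquitin ligase subunit that targets PDCD4, rose in SH3 RNA by 0.85 (SE 0.09, edgeR adjusted p 7.93e-06), with -0.13 in SH2 (edgeR adjusted p 0.243). LARP6, a relative of LARP1, rose in RNA by 0.74 in SH2 (edgeR adjusted p 1.35e-05) and, with SH3, 0.73 (edgeR adjusted p 2.44e-05).

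In translational efficiency, 1 of 90 other pathway genes rose and 9 fell in SH2, and 1 rose and 0 fell in SH3, where 12 had an unadjusted p under 0.05 in either direction. Over all 12531 genes, 1.44% were called higher and 2.46% lower in SH2, and 0.375% and 0.311% in SH3, where 12.6% had an unadjusted p under 0.05. Whether the list differs from these shares was not tested. The riser in each was EIF4B, a target of S6 kinase that is itself a TOP mRNA. Its RNA fell from 561 ± 46.3 CPM to 434 ± 7.53 and 342 ± 15.1, while its footprints rose from 370.2 ± 8.81 to 535 ± 48.3 and 542 ± 72.2 (SD, n = 3 each). Its efficiency rose by 0.89 in SH2 (SE 0.15, edgeR adjusted p 0.00294) and, with SH3, 1.28 (SE 0.15, edgeR adjusted p 0.000302), and it kept its call under every alternative. The 9 that fell in SH2 were less firm, with 1 to 4 without SC replicate 1 or 3 or any 1 of the SH2 replicates, and 2 with the IN and RPF libraries of one number and treatment taken as a block. Among them were SESN2 (-1.14, edgeR adjusted p 0.0228), FLCN, the GTPase activator of RRAGC and RRAGD (-0.96, edgeR adjusted p 0.0197), and EIF4G1, the scaffold of eIF4F (-0.63, edgeR adjusted p 0.0159). Without SC replicate 3 and without SH2 replicate 3 none of these 3 passed (edgeR adjusted p 0.0681 to 0.116), and FLCN did not pass with the block (-0.97, edgeR adjusted p 0.0761).

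The TOP mRNAs themselves, on which this pathway acts, moved in RNA and in efficiency. These lists had been seen to move in earlier results of the same libraries, so their direction is not independent evidence. RNA was lower in 75 of 79 ribosomal protein genes in SH2 and 73 in SH3, while their efficiency was higher in 35 (44.3%) and 19 (24.1%) with median changes of 0.58 and 0.52. Over all genes, RNA was called lower in 30.4% and 25.2%, and efficiency higher in 1.44% and 0.375%. Footprints of the ribosomal protein genes had median changes of -0.04 and -0.06. Of 78 tested, 9 rose and 19 fell with SH2, where 21.0% of all genes were called higher and 23.2% lower. With SH3, 5 rose and 17 fell, where 16.9% of all genes were called higher and 19.0% lower. The lower footprints were 9 to 12 in SH2 without SC replicate 1, SH2 replicate 2 or SH2 replicate 3, and 8 to 10 in SH3 without SC replicate 1 or any 1 SH3 replicate. The higher ones in SH3 were 9 with a replicate block, 3 with thinned footprints, and 1 to 2 without SC replicate 3 or SH3 replicate 2. The count of higher efficiency in SH2 was 19 to 23 without SC replicate 3, SH2 replicate 1 or SH2 replicate 3. In SH3 that count was 31 without SC replicate 1, 11 without SC replicate 2, and 2 to 6 without SC replicate 3 or any 1 SH3 replicate. Footprints per RNA averaged over these genes, as a log2 difference, between same-numbered libraries, stood at -0.404, -0.451 and -0.612 in SC, 0.175, -0.064 and 0.064 in SH2, and 0.05, -0.061 and -0.021 in SH3. All hairpin values lay above all SC values. Of 18 other TOP mRNAs, 8 rose in efficiency in SH2 and 3 in SH3, with medians of 0.47 and 0.44, and the SH2 count was 5 without SC replicate 3, SH2 replicate 1 or SH2 replicate 3.

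Of the TOP mRNAs whose starts are printed above, EEF1A1, the elongation factor that delivers aminoacyl-tRNA, rose in efficiency by 1.03 in SH2 (SE 0.21, edgeR adjusted p 0.00787), with 0.52 in SH3 (SE 0.21, edgeR adjusted p 0.275). RPS6, the substrate that names S6 kinase, had values of 0.54 and 0.66 (SE 0.18 each, edgeR adjusted p 0.107 in both). EEF2, the translocase, had 0.39 and 0.44 (SE 0.15 each, edgeR adjusted p 0.156 and 0.192). RPS19, a protein of the small subunit, had 0.12 and 0.58 (SE 0.20 each, edgeR adjusted p 0.801 and 0.192), so that EEF1A1 in SH2 was the 1 efficiency call among these 4 genes.

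A pyrimidine tract at the annotated start was then examined apart from these lists. Outside the ribosomal protein and TOP lists, 697 tested genes had the tract and 9417 had a listed start without it. Their median efficiency change in SH2 was 0.02 with the tract and -0.03 without, and 2.3% against 1.05% were called higher. In SH3 the medians were -0.01 and -0.05, and 0.43% against 0.223% were called higher. Called lower in SH2 were 2.58% and 2.5%. Over the alternatives the median with the tract ran with SH2 from 0.015 to 0.063 and with SH3 from -0.03 to 0.0084. These are descriptions over genes, which are not replicates.

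**Figure D5:**
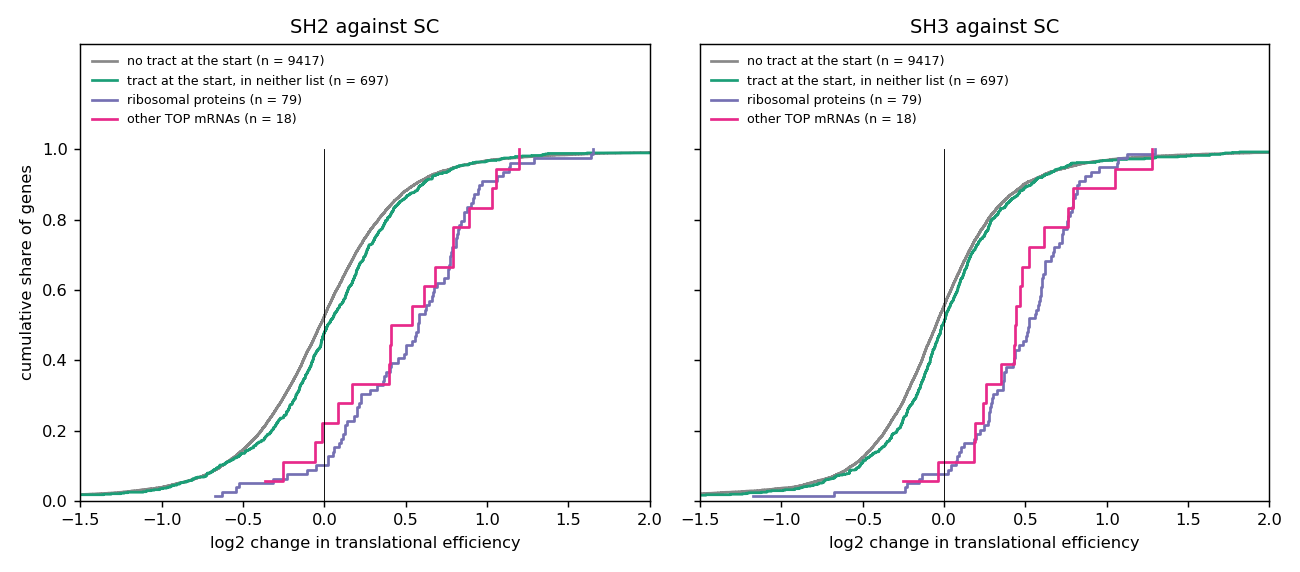
Cumulative share of genes by log2 change in translational efficiency for SH2 (left) and SH3 (right), in 79 ribosomal protein genes, 18 other TOP mRNAs, 697 further genes with a pyrimidine tract at the RefSeq start and 9417 without. The curves of the ribosomal proteins and TOP mRNAs lie to the right, with medians of 0.44 to 0.58, and the curves of the other groups nearly coincide around 0.

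How reads shared between genes were counted is not stated, and it touches some members. By RefSeq, TSC2 overlaps PKD1 and PDCD4 overlaps BBIP1, both present in the count table, and RHEB, EIF4EBP1, EIF4EBP2 and LARP1 have 3, 2, 3 and 1 annotated pseudogenes. The strand of the counting is not stated either, so that reads of overlapping genes cannot be told apart for these members.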

How the data were processed

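Cytoplasmic RNA and ribosome footprints were measured in 9 libraries each. Bowtie 1.2.2 and DESeq2 are named in the submitters' processing notes. The roles of these tools, the counting, the annotation and the build are not given in the sources used here. The deposited table holds raw counts per gene. A further set of 18 columns holds a normalized signal, DESeq2 values per the file headers, each equal to the count over 1 factor. The authors' deposited log2 fold changes and p-values were read but not used, and those of the ratio measure were identical for both hairpins in 3 of 3 column pairs. From the counts, genes were tested with edgeR 4.0.16 (R 4.3.3): filterByExpr, TMM scaling, quasi-likelihood test, two-sided, Benjamini-Hochberg adjustment over all genes tested. RNA used 1 fit of 9 IN libraries, footprints 1 of 9 RPF libraries, and translational efficiency an interaction contrast over all 18. Scripts were tested on simulated data. The SE is the absolute log2 change over the square root of F. Replicates of a group differed by a chi-square per degree of freedom of 3.38 to 56.3, so all were counted. Deviations of same-numbered SC and SH2 libraries correlated at 0.38, 0.36 and 0.41 in RNA and 0.28, 0.29 and 0.24 in footprints. These were above 0.1 in every pair, so those numbers were read as pairs from the data, not from the labels. The main fits left the pairs out and used treatment only, so their p-values are unpaired. Only the replicate block, an alternative, used the numbers, in RNA and footprints over all 9 libraries with SH3 included. Alternatives were DESeq2-style size factors computed in edgeR and the Wald test of DESeq2 1.42.0. Others were no low-count filter, a replicate block, thinned footprints, and leaving out each replicate. The members and lists were chosen with earlier results of these data known. All members were named. Of each other list, the rule named up to 2 called genes with the largest change per measure and hairpin; those printed were picked from these, and followed into other measures, with their values seen. RPS6, RPS19, EEF1A1 and EEF2 fall outside it and were picked as TOP mRNAs, and FBL is the target. For likeness the 3 genes with the highest Pearson's r were taken. Footprint density per length was not run, since coding lengths were not used here. PIK3R2 was the listed gene not matched in the table.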

Additional observations from a re-analysis of the deposited data

Results flagged for a closer look

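RPTOR, the substrate-recruiting subunit of mTORC1, differed between the hairpins, with values of opposite sign against SC. In RNA the difference of SH2 from SH3 was -0.64 on the log2 scale (edgeR adjusted p 0.000409), with -0.25 in SH2 and 0.40 in SH3 against SC, and in footprints it was -0.85 (edgeR adjusted p 0.000698), with -0.08 and 0.76. Over the alternatives the differences ran from -0.70 to -0.54 in RNA and from -0.92 to -0.78 in footprints, and each kept its call. Against SC the SH2 value did not pass in footprints. In RNA it did not pass (edgeR adjusted p 0.0592), but passed with the replicate block (edgeR adjusted p 0.0268). Without SH2 replicate 1 the RNA value in SH2 was -0.14 (edgeR adjusted p 0.263).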

How the results depend on the processing

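Of the member values against SC, no call in RNA or in SH2 footprints was lost. In SH3 footprints thinning to one depth left 4 members called, and between the hairpins 2 were called in footprints with no low-count filter. Genes called in translational efficiency numbered 489 in SH2, 86 in SH3 and 2 between the hairpins. With the DESeq2 Wald test they were 930, 383 and 254. With a replicate block, here of the IN and RPF libraries of one number and treatment, they were 191, 23 and 0 (1178 at an unadjusted p under 0.05 in the last). Thinned footprints gave 246 in SH2 and 0 between the hairpins (1339 unadjusted), and no filter gave 35 between the hairpins. The replicate block brought EIF4EBP1 footprints in SH3 (-0.84, edgeR adjusted p 0.0123), RPTOR RNA in SH2 (-0.25, edgeR adjusted p 0.0268) and RPS6KB1 RNA between the hairpins (-0.26, edgeR adjusted p 0.0418) past the threshold and changed no other member's call. For SC with SH3 the correlations of same-numbered libraries were 0.25, -0.15 and 0.35 in RNA and 0.013, -0.061 and 0.25 in footprints, and for SH2 with SH3 they were 0.49, -0.0074 and 0.29, and -0.014, -0.12 and 0.30, so these were not taken as pairs. The replicate block of RNA and footprints used the numbers across all treatments all the same. Deviations of IN and RPF libraries of one number and treatment correlated at -0.49 to 0.50, and were negative in replicates 1 and 2 of SC and of SH2. Of the IN libraries, 5 of 9 correlated best with the RPF library of their number. Ratios of same-numbered libraries, and the block in efficiency, therefore rest on the numbers in the labels.

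Ribosomal proteins with higher efficiency in SH3 numbered 19, but 39 with the Wald test and 8 with the replicate block, and other TOP mRNAs 3, but 7 with the Wald test. Other pathway genes with lower efficiency in SH2 numbered 9, but 4 with thinned footprints and 2 with the block.

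Leaving out 1 replicate gave 110 to 555 genes in efficiency in SH2, 10 to 244 in SH3 and 0 to 1 between the hairpins (991 to 1543 unadjusted), 1541 to 2104 genes in footprints between the hairpins, and 3 to 6 members in RNA and 1 to 2 in footprints in that comparison.

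Signs turned only in values not called. Thinned footprints gave TSC1 -0.085 (SH2), -0.051 (SH3) and -0.034 (between hairpins) in footprints, and in efficiency MTOR -0.051 and TSC1 -0.18 in SH2, RPS6KB1 0.071 in SH3 and EIF4EBP1 0.088 between the hairpins. The Wald test gave efficiency values of 0.0044 for TSC2 in SH3 and 0.0049 for EIF4EBP1 between the hairpins, where the replicate block gave 0.076. Without 1 replicate, RNA ran from -0.19 to 0.011 for TSC1 in SH3 and from -0.011 to 0.082 for MTOR between hairpins. Footprints ran from -0.0303 to 0.16 for TSC1 in SH3 and, between hairpins, from -0.0899 to 0.018 for MTOR, -0.15 to 0.12 for RPS6KB1 and -0.83 to 0.14 for EIF4EBP1. Efficiency in SH2 ran from -0.012 to 0.17 for TSC1, -0.24 to 0.12 for LARP1, -0.082 to 0.13 for RPS6KB1, -0.024 to 0.25 for RPTOR and -0.38 to 0.17 for EIF4EBP1. In SH3 it ran from -0.088 to 0.086 for TSC2, -0.071 to 0.28 for LARP1, -0.0071 to 0.27 for PDCD4, -0.72 to 0.17 for EIF4EBP1 and -0.28 to 0.041 for RHEB. Between hairpins it ran from -0.17 to 0.15 for RHEB, -0.28 to 0.61 for EIF4EBP1 and -0.12 to 0.0032 for TSC1. The cause was not tested. Members held as few as 14 counts in an RPF library.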

Other observations

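Some pathway genes outside the members also differed between the hairpins, and were picked here after their values were seen. FLCN, which acts on the Rag GTPases, had RNA levels of 37.1 ± 7.80 CPM with SC, 34.0 ± 2.07 with SH2 and 54.7 ± 2.82 with SH3, and footprint levels of 33.6 ± 5.47, 15.6 ± 1.74 and 42.5 ± 2.32 (SD, n = 3 each). SH2 lay below SH3, with log2 differences of -0.68 in RNA (SE 0.13, edgeR adjusted p 0.00107) and -1.44 in footprints (SE 0.19, edgeR adjusted p 7.29e-05). MLST8 differed by -0.66 in RNA (edgeR adjusted p 0.000482) and -0.66 in footprints (edgeR adjusted p 0.0213). PRKAG2 differed by -1.26 in RNA (edgeR adjusted p 8.77e-07) and BTRC by -0.98 (edgeR adjusted p 4.4e-06).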
